A study of Mus musculus with 6 samples.

Results

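The genes described here are the receptors, surface enzymes and carriers that handle nucleotides, nucleosides and purine bases outside the cell and at its membrane. They were found by symbol in the platform annotation: every gene starting with P2rx, P2ry, Adora, Mrgpr, Entpd, Enpp, Slc28a or Slc29a, plus Nt5e, Slc43a3 and Panx1. This gave 58 of the 19938 genes that had a probe set with a single symbol. No adenosine receptor is among them, and that family is not analysed here. Enpp1 and Enpp2 are not among them either, so statements on the Enpp family cover Enpp3 to Enpp7 only. Expression was measured on 6 whole-transcript arrays of 3T3-L1 cells, mouse fibroblasts that become fat cells under hormonal induction, 1 array for each of 6 conditions. Undifferentiated fibroblasts in medium with 10% calf serum were left untreated, or were given adenine or AICAR at 0.5 mM for 3 days. Adipocytes were made by 3 days of induction in 10% fetal bovine serum with insulin (1 µg/ml), dexamethasone (1 µmol/l) and IBMX (115 µg/ml), followed by 3 days with insulin alone. They were untreated, or had one of the compounds at the same 0.5 mM during the induction only, and were then measured 3 days after the compound was withdrawn. Serum, induction drugs and cell state changed together and cannot be told apart.

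ATP and other nucleotides that leave a cell act on ATP-gated channels (the P2X receptors) and on G protein-coupled P2Y receptors until surface enzymes of the Entpd, Enpp and Nt5e families break them down to nucleosides. Nucleosides re-enter through the concentrative Slc28a and the equilibrative Slc29a carriers, and purine bases such as adenine through Slc43a3. Adenine itself is a ligand of some rodent receptors of the Mrgpr family, and extracellular ATP and adenosine both act on lipolysis in adipose cells. AICAR is a ribonucleoside, adenine a free base, and IBMX both inhibits phosphodiesterases and blocks adenosine receptors.

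For reference, the RefSeq sequences of the 250 bases before the start site are given for 3 genes that were at least 2-fold different with AICAR in fibroblasts, in build GRCm38.p6. P2rx4 is on the plus strand at chr5:122707294-122707543, Enpp3 on the minus strand at chr10:24836196-24836445 and Mrgpre on the minus strand at chr7:143784501-143784750. Each runs 5′ to 3′ along its gene, and capitals mark AGGTCA, a core motif of nuclear receptors, or its reverse complement.
P2rx4: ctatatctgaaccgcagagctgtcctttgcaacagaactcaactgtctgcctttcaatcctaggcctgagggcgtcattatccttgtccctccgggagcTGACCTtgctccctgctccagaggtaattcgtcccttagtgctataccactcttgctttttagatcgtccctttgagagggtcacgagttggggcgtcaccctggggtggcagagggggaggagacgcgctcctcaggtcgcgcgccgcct
Enpp3: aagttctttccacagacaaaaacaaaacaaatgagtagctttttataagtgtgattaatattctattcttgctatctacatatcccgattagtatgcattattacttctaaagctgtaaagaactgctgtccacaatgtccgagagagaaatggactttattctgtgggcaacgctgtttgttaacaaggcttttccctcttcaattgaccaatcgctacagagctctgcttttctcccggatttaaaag
Mrgpre: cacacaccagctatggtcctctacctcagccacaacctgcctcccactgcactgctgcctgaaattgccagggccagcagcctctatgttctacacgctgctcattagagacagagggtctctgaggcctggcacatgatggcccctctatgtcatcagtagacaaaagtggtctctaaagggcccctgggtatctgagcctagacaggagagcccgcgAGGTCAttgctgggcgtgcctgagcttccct

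The motif began 151 bases before the start site used for P2rx4 and 31 bases before that of Mrgpre, and it was not found in the window of Enpp3. The RefSeq gene start of P2rx4 is at 122707518, so the end of its window lies within the gene. Searched on both strands, the motif was present in 4607 of the 32851 windows of this length in the table. The E-box CACGTG (6.02% of windows), the C/EBP core TTGCNNAA (9.56%) and the cAMP response element TGACGTCA (1.55%) were in none of these 3 windows. A match describes the letters only. Of the 10 genes with a 2-fold difference in any comparison against a control, 6 were matched by symbol in the RefSeq promoter table. Among the others of these, AGGTCA lay at 2 of 8 start sites of Slc29a1, 1 of 3 of P2ry10b and 0 of 1 of Entpd5. The C/EBP core lay at 2 of 3 start sites of P2ry10b and the E-box at 1 of 8 of Slc29a1, and these motifs were at no other start site of the 6 genes. The 4 remaining genes are P2rx3, Mrgprf, Enpp5 and Slc43a3.

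Most of the family sat at the dim end of the arrays. Of the 58 genes, 16 had a mean log2 level of at least 5.87, which is the median over all gene means, and 42 were below it. No detection calls were used, so a value near this floor is a level that cannot be read as expressed or silent. The 42 dim genes varied little, with a median range of 0.39 over the 6 arrays against 1.78 for the 16 brighter ones. The widest range among the dim genes was 0.92, in P2ry13, a receptor for ADP, and 0 of the 42 reached a 2-fold difference in any comparison against a control. Among all 9969 genes below the same median, the share that did was 1.34% between the untreated states, 0.140% with adenine and 1.00% with AICAR in fibroblasts, and 0.632% with adenine and 0.130% with AICAR in adipocytes. The members nearest the line were Slc29a2 (mean 6.10), P2ry10b (6.27) and Entpd5 (6.95) above it, and Slc28a1 (5.51), Mrgprd (5.46) and Panx1 (5.30) below it.

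**Figure D1:**
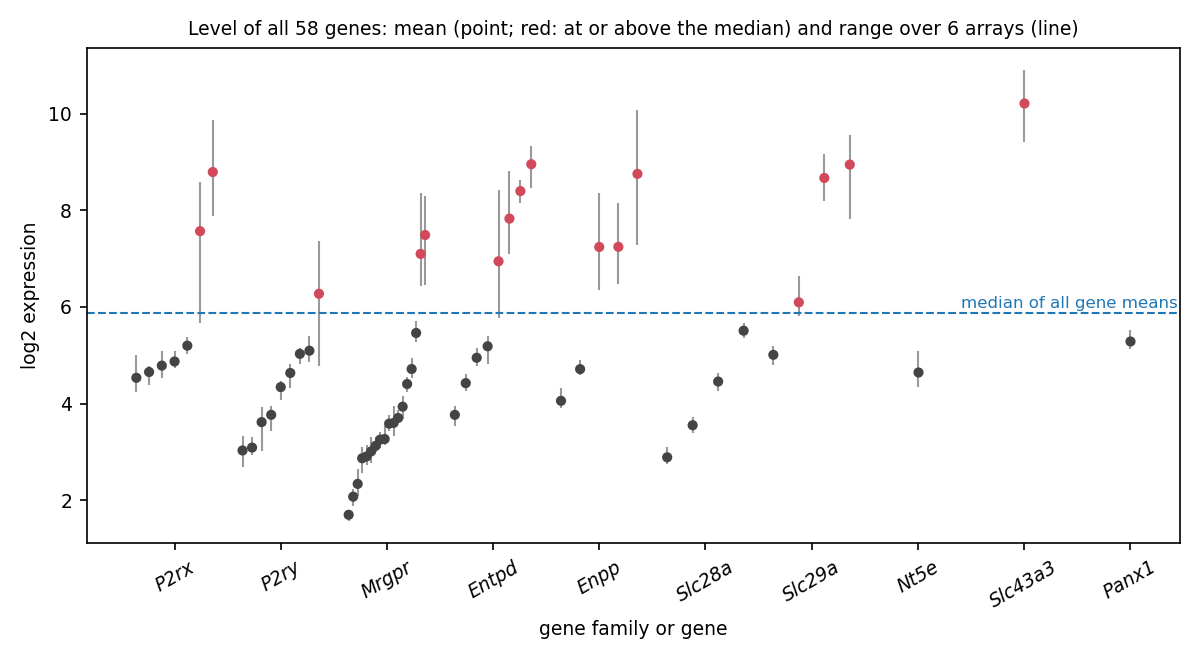
Mean log2 expression of each of the 58 genes (point) with its lowest and highest value over the 6 arrays (line), by family; the dashed line is the median of all gene means, 5.87. The 16 red points at or above the line belong to 7 of the 10 families or single genes, and no Slc28a gene, Nt5e or Panx1 is among them.

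The brighter genes were unevenly spread over the families. Of 7 ATP-gated channels, 2 were at or above the median (P2rx3 and P2rx4), and the other 5 lay between 4.24 and 5.38 on every array. Of 9 P2Y receptor genes 1 was (P2ry10b), and the other 8, which include the ADP receptors P2ry1 and P2ry12 and the ATP and UTP receptor P2ry2, lay between 2.69 and 5.40. In the Mrgpr family 2 of 18 were (Mrgpre and Mrgprf, both receptors without an assigned ligand). The 4 Mrgpra genes with a single-symbol probe set, from the branch that holds the rodent adenine receptors, lay between 1.87 and 3.31 on all arrays, and the 7 Mrgprb genes between 1.58 and 4.55. Genes of the Mrgpra and Mrgprb branches are close copies, so that a probe set may read more than 1 of them.

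In the Entpd family 4 of 8 genes were at or above the median, and these were Entpd4, Entpd5, Entpd6 and Entpd7, whose proteins work inside the secretory pathway and other organelles. Entpd1, Entpd2, Entpd3 and Entpd8, which encode the cell-surface ATP and ADP hydrolases, lay between 3.55 and 5.41. Nt5e, which makes adenosine from extracellular AMP, lay between 4.34 and 5.08. Enpp3, Enpp4 and Enpp5, of the nucleotide pyrophosphatase family, passed, while the choline phosphodiesterase Enpp6 and the intestinal sphingomyelinase Enpp7 lay between 3.90 and 4.91. Of the equilibrative carriers Slc29a1, Slc29a2 and Slc29a3 passed and Slc29a4, which also carries monoamines, did not (4.80 to 5.20). All 4 concentrative Slc28a genes were dim (2.75 to 5.68), as was the ATP release channel gene Panx1 (5.14 to 5.53).

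The adipocyte markers followed the labels, and the fibroblast markers did so in part. All 8 adipocyte markers listed were at least 2-fold higher in untreated adipocytes than in untreated fibroblasts (Adipoq, 10.64 against 4.42), and 4 of 8 fibroblast markers were at least 2-fold lower. Of the other fibroblast markers, Pdgfra was higher in the adipocytes (0.44), and Col3a1 (-0.12), Col1a1 (-0.51) and Postn (-0.84) were lower within 2-fold. The log2 of the summed level of the fibroblast list stood at 13.57 in control, 11.87 in adenine and 13.25 in AICAR adipocytes, against 14.24, 14.42 and 14.03 in fibroblasts. That of the adipocyte list stood at 13.45, 14.59 and 13.31 in the adipocyte arrays and between 8.58 and 9.43 in fibroblasts. All 6 sensory neuron markers with values, listed because P2rx3 and the Mrgpr receptors are best known from those neurons, were below the median (1.83 to 5.73), as were all 6 endothelial markers (2.97 to 5.15). Of 7 leukocyte markers 5 were below it, including Ptprc (3.86 to 4.32), and Cd68 and Lyz2 were above it; Lyz2 lay between 7.10 and 8.12 in fibroblasts and between 3.81 and 5.57 in adipocytes.

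Both ATP-gated channel genes above the median were lower in AICAR fibroblasts than in the other fibroblasts. P2rx4, which encodes a widely expressed P2X channel, had log2 levels of 9.57 in control, 9.87 in adenine and 7.88 in AICAR fibroblasts, and of 8.35, 8.54 and 8.54 in the corresponding adipocytes. The 3 adipocyte arrays lay close together, between the AICAR fibroblasts and the other fibroblasts. P2rx3, a P2X channel best known from pain-sensing neurons, had 8.59, 8.56 and 5.66 in fibroblasts and 7.01, 7.79 and 7.81 in adipocytes. Its lowest array was again the AICAR fibroblasts, which was below the median of gene means. A second probe set of P2rx3 stayed between 4.30 and 4.83 on all 6 arrays and differed by -0.39 between AICAR and control fibroblasts, so the P2rx3 values rest on 1 of 2 probe sets.

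**Figure D2:**
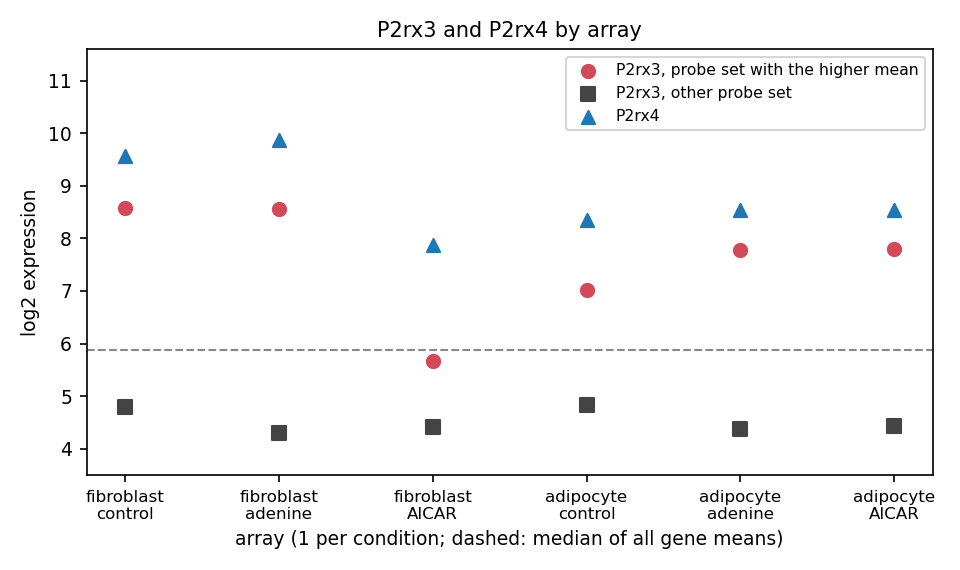
Log2 expression of both P2rx3 probe sets and of P2rx4 on each of the 6 arrays (1 array per condition; dashed line, median of all gene means). In fibroblasts P2rx4 and the brighter P2rx3 probe set were lowest with AICAR (7.88 and 5.66), while the other P2rx3 probe set stayed between 4.30 and 4.83.

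The remaining receptors each had a pattern of their own. P2ry10b, a neighbouring copy of P2ry10, a receptor for lysophospholipids rather than nucleotides, had 6.91, 7.36 and 6.57 in control, adenine and AICAR fibroblasts and 6.11, 4.77 and 5.92 in adipocytes. All adipocyte arrays were below all fibroblast arrays, and the adenine adipocytes were the lowest. Its mean over the adipocyte arrays was 5.60, below the median of gene means, so it entered the comparisons through its fibroblast levels of 6.95 on average. Mrgprf had 8.29, 8.10 and 6.45 in fibroblasts and 8.12, 6.50 and 7.46 in adipocytes, with AICAR the low array in one state and adenine in the other. Mrgpre had 6.65, 7.16 and 8.35 in fibroblasts and 7.04, 6.43 and 6.95 in adipocytes, and the AICAR fibroblasts stood above every other array. In this it ran opposite to Mrgprf, which was low there.

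Among the enzymes above the median, 3 of 3 Enpp genes and 2 of 4 Entpd genes had arrays of the 2 states that did not overlap, a separation shown by 42.0% of all genes at or above the median. Enpp5 had 9.69, 9.83 and 10.09 in control, adenine and AICAR fibroblasts and 7.27, 7.63 and 8.02 in adipocytes. Enpp4, an enzyme that splits dinucleoside polyphosphates, had 7.36, 7.42 and 8.15 in fibroblasts and 6.47, 7.07 and 7.00 in adipocytes. For both, the adipocyte arrays lay below the fibroblast arrays. Enpp3, which splits extracellular nucleotides, had 8.36, 8.07 and 7.12 in fibroblasts and 6.69, 6.36 and 6.85 in adipocytes, again without overlap. Entpd5, a UDP-hydrolysing enzyme of the endoplasmic reticulum, had 6.41, 6.51 and 5.77 in fibroblasts and 7.44, 8.42 and 7.13 in adipocytes. Entpd6, a nucleoside diphosphatase of the secretory pathway, had 7.48, 7.32 and 7.09 against 8.30, 8.80 and 7.97. Both were higher in every adipocyte array than in any fibroblast array. Entpd4, of the Golgi and lysosome, had 9.22, 9.34 and 8.46 in fibroblasts and 8.79, 9.07 and 8.84 in adipocytes, and Entpd7 stayed between 8.15 and 8.62 throughout, the narrowest range of the 16 (0.46). These 2 did not separate the states, and Entpd4 has a near-identical copy in the genome whose signal its probes may share.

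Of the carriers, Slc43a3, the nucleobase transporter that admits adenine, had 9.41, 9.44 and 10.57 in control, adenine and AICAR fibroblasts and 10.90, 10.53 and 10.43 in adipocytes. The AICAR fibroblasts reached the adipocyte values, while the other fibroblast arrays were lower. Slc29a1, the main equilibrative nucleoside carrier of the plasma membrane, had 9.55, 9.42 and 9.05 in fibroblasts and 8.95, 7.83 and 8.88 in adipocytes, where the adenine array was lowest. Slc29a3, the carrier of lysosomes, had 8.59, 8.72 and 9.16 in fibroblasts and 9.04, 8.18 and 8.32 in adipocytes, and Slc29a2, which also carries bases, had 5.88, 5.81 and 6.65 against 6.20, 5.86 and 6.18. For both of these the AICAR fibroblasts were the highest array.

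**Figure D3:**
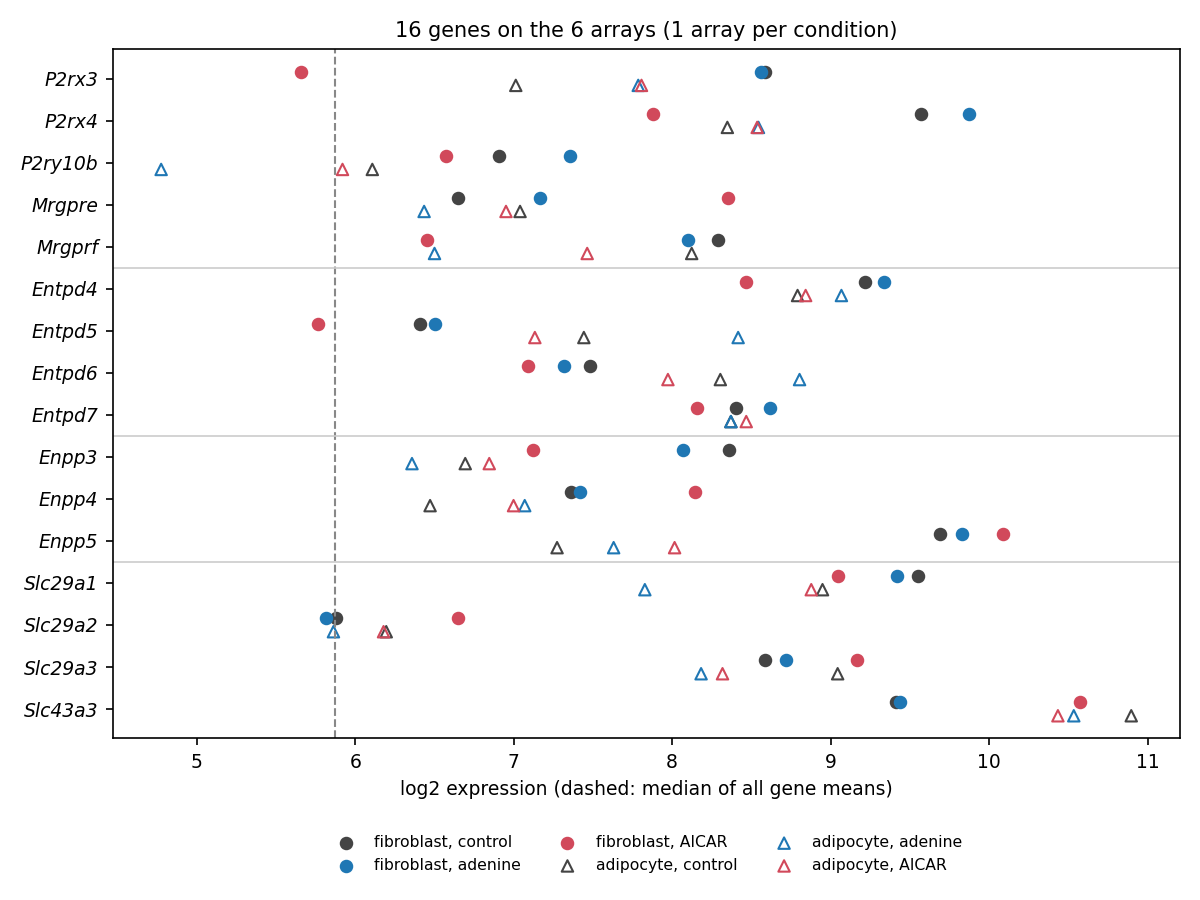
Log2 expression of the 16 genes at or above the median on each of the 6 arrays (filled circles, fibroblasts; open triangles, adipocytes; colour, medium), with receptors, Entpd enzymes, Enpp enzymes and carriers separated by lines. Enpp5 shows a gap between states (9.69 to 10.09 against 7.27 to 8.02), and P2rx3 the widest range (2.93).

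The first comparison set untreated adipocytes against untreated fibroblasts. Each condition has a single array, so a difference between 2 of them has no replicate check, and their number limits the precision of every value. Of the 16 genes, 6 differed at least 2-fold, beside 7.15% of all 9969 genes at or above the median. Lower in adipocytes were Enpp5 (log2 difference -2.42, 5.34-fold), Enpp3 (-1.67, 3.17-fold), P2rx3 (-1.57, 2.97-fold) and P2rx4 (-1.22, 2.33-fold). Slc43a3 (1.49, 2.80-fold) and Entpd5 (1.04, 2.05-fold) were higher. With the mean of both P2rx3 probe sets the value of that gene was -0.77, which is within 2-fold. Lyz2 was lower in the same pair (7.99 against 5.32) while Ptprc stood at 4.24 in both, and the part of leukocyte markers in these differences was not tested. The median over the 16 genes was -0.29, against 0.02 over all genes. In bulk RNA, fewer cells of a type and less RNA per cell cannot be told apart.

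The same contrast within each compound gave other values for several genes. Between the adenine arrays 9 of 16 genes differed at least 2-fold (15.2% of all genes) and between the AICAR arrays 6 of 16 (10.5% of all genes). Enpp5 differed by -2.20 with adenine and -2.07 with AICAR, beside -2.42 in the controls. Entpd5 was higher by 1.91 and 1.37, and Entpd6 by 1.49 and 0.88. P2rx4 differed by -1.33 with adenine and by 0.66 with AICAR, and P2rx3 by -0.77 with adenine and by 2.15 with AICAR, so that both were lower in adipocytes in the former pair and higher in the latter. Mrgprf differed by -1.60 with adenine and by 1.01 with AICAR, the latter at the 2-fold line (0.99 after quantile normalization). Enpp3 differed by -1.71 and -0.28, Slc29a1 by -1.59 and -0.17, and Enpp4 by -0.35 and -1.15. Slc43a3 was higher by 1.09 with adenine and differed by -0.14 with AICAR, and Mrgpre differed by -0.73 and -1.40. P2ry10b differed by -2.58 with adenine, beside -0.80 in the controls and -0.65 with AICAR. The filter kept P2ry10b through its fibroblast arrays, and its level of 4.77 in adenine adipocytes was below the median of gene means. Its place among the 9 genes carries no weight.

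**Figure D4:**
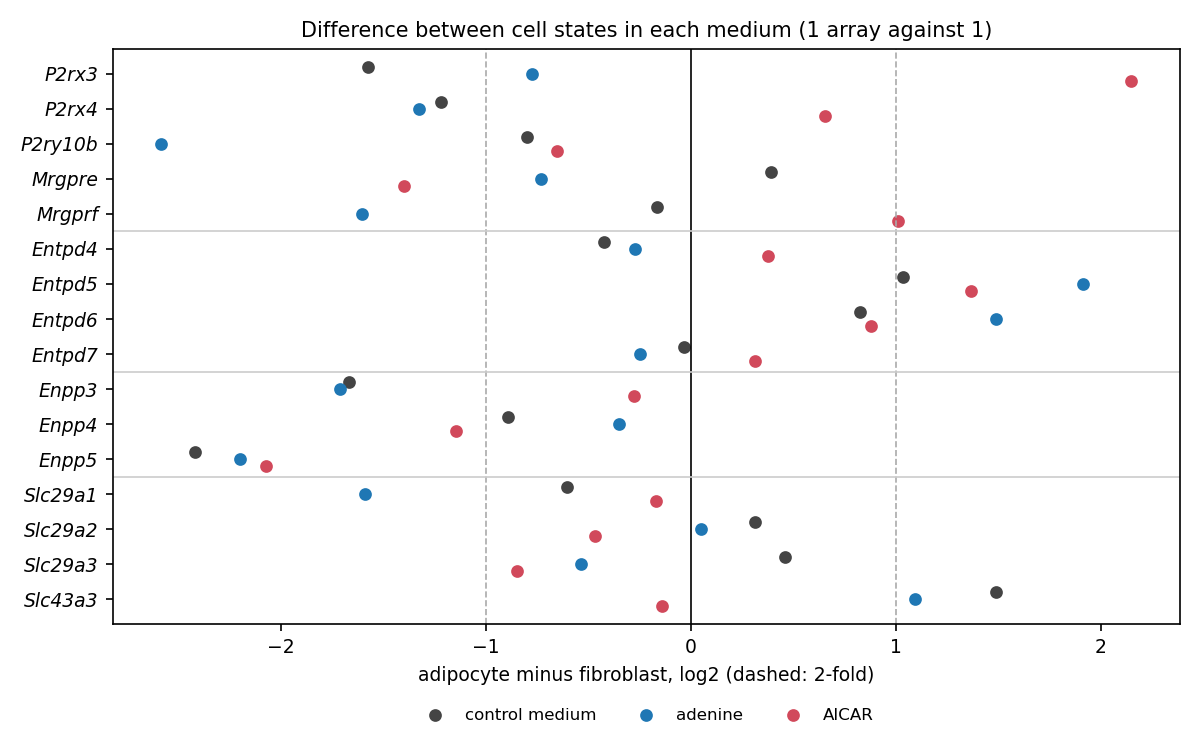
Log2 difference between adipocytes and fibroblasts for the 16 genes in control medium, with adenine and with AICAR (1 array against 1; dashed lines, 2-fold). Enpp5 lies between -2.42 and -2.07 in all 3 media, whereas P2rx3 runs from -1.57 in control medium to 2.15 with AICAR.

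The 3 adipocyte arrays did not overlap the 3 fibroblast arrays for 7 of the 16 genes: Enpp3, Enpp4, Enpp5, P2ry10b and Slc29a1 were lower in adipocytes, and Entpd5 and Entpd6 higher. P2ry10b was kept by the filter through the fibroblast arrays, so its place in this count carries no weight. Of all genes at or above the median 42.0% were separated in this way, so that the share among these 16 was near the background. A linear model of the 6 arrays with additive terms for state and for medium called 3 of the 16, against 10.6% of all genes (1055 of 9969). Enpp5 fell in adipocytes by 2.23 (SE 0.148, limma adjusted p = 0.00324). Entpd5 rose by 1.44 (SE 0.203, limma adjusted p = 0.0173) and Entpd6 by 1.06 (SE 0.185, limma adjusted p = 0.0277). All 3 genes had the same sign in 3 of 3 media, which is no separate check, since the coefficient averages those differences. Enpp3, Enpp4, P2ry10b and Slc29a1, which were not called, also kept their sign. Enpp4 (-0.80, limma adjusted p = 0.0596), Enpp3 (-1.22, limma adjusted p = 0.0657) and P2ry10b (-1.35, limma adjusted p = 0.0888) did not pass. Without the control pair of arrays 0 of the 16 passed (6 at an unadjusted limma p under 0.05), as did 0 of all genes (2095 unadjusted), with Enpp5 at a limma adjusted p of 0.0691. Without the adenine pair 3 passed, with Enpp4 (limma adjusted p = 0.0477) in place of Entpd6 (limma adjusted p = 0.0745). Without the AICAR pair 7 passed: the first 3, Enpp3 (-1.69, limma adjusted p = 0.00907), P2rx4 (-1.27, limma adjusted p = 0.0171), Slc43a3 (1.29, limma adjusted p = 0.0220) and P2rx3 (-1.17, limma adjusted p = 0.0499). The error of this model is the departure from additivity between conditions and not the spread between cultures.

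Adenine in fibroblasts left all 16 genes within 2-fold of the control. None of them reached 2-fold, beside 0.130% of all genes (13 of 9969). The largest positive differences were those of Mrgpre (0.52), P2ry10b (0.45) and P2rx4 (0.30), and the largest negative ones those of Enpp3 (-0.29) and Mrgprf (-0.18). Slc43a3 and Slc29a1, carriers for the base and for nucleosides, differed by 0.03 and -0.14. The robust SD of this difference over all genes was 0.156, and no replicate shows how much of it arises between cultures.

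With AICAR in fibroblasts, both P2X channel genes, Mrgprf and Enpp3 were lower than in the control, and Mrgpre and Slc43a3 higher. Of the 16 genes 6 differed at least 2-fold, beside 5.39% of all genes at or above the median (537 of 9969). The log2 difference was -1.83 for Mrgprf (3.56-fold), -1.69 for P2rx4 (3.22-fold), -1.24 for Enpp3 (2.36-fold), 1.70 for Mrgpre (3.25-fold) and 1.16 for Slc43a3 (2.24-fold). That of P2rx3 was -2.93 by its brighter probe set and -1.66 by the mean of both, and its AICAR level of 5.66 was below the median of gene means, so the size of this difference is limited by the dim end of the scale. The largest differences within 2-fold were those of Enpp4 (0.78), Slc29a2 (0.77), Entpd4 (-0.75), Entpd5 (-0.64), Slc29a3 (0.58) and Slc29a1 (-0.51), which puts the carriers on both sides of 0. The median over the 16 genes was -0.36, against -0.03 over all genes, and 10 of 16 were below 0. In the same pair 3 of 8 fibroblast markers were at least 2-fold lower and 0 higher (14.24 against 14.03 for the log2 of the summed list). Of the leukocyte list Cd68 was higher (1.49), Lyz2 stood at -0.89 and Ptprc at -0.03, with 8.75 against 8.78 for the summed list. Of the adipocyte list Fabp4 was higher (1.65), with 8.73 against 9.43 for the summed list, while Adipoq stood at -0.37. The part of these markers in the differences of the 16 genes was not tested.

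Adipocytes that had received adenine during induction differed from untreated adipocytes in 3 of the 16 genes, beside 3.64% of all genes (363 of 9969). Lower with adenine were Mrgprf (-1.62, 3.08-fold), P2ry10b (-1.33, 2.52-fold) and Slc29a1 (-1.12, 2.18-fold). P2ry10b averaged 5.60 in adipocytes, below the median of gene means, and the filter kept it through its fibroblast arrays. Its place in this count carries no weight. Within 2-fold stood Entpd5 (0.97, 1.96-fold), Slc29a3 (-0.86), P2rx3 (0.77), Mrgpre (-0.61) and Enpp4 (0.60). In the same pair of arrays 8 of 8 fibroblast markers were at least 2-fold lower and 6 of 8 adipocyte markers at least 2-fold higher. Lyz2, a lysozyme gene of the leukocyte list, went from 5.32 to 3.81 there, while Ptprc stood at 4.24 and 4.20. The part of these markers in the differences of Mrgprf, P2ry10b and Slc29a1 was not tested.

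AICAR during induction left all 16 genes within 2-fold of untreated adipocytes, beside 0.993% of all genes at or above that fold (99 of 9969). The largest differences were those of P2rx3 (0.79), Enpp5 (0.74), Slc29a3 (-0.73), Mrgprf (-0.66) and Enpp4 (0.53). P2rx4 and Mrgpre, which differed at least 2-fold with AICAR in fibroblasts, stood at 0.19 and -0.09. Fibroblasts were measured at the end of exposure and adipocytes 3 days after it, so the 2 exposures are not matched in time.

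**Figure D5:**
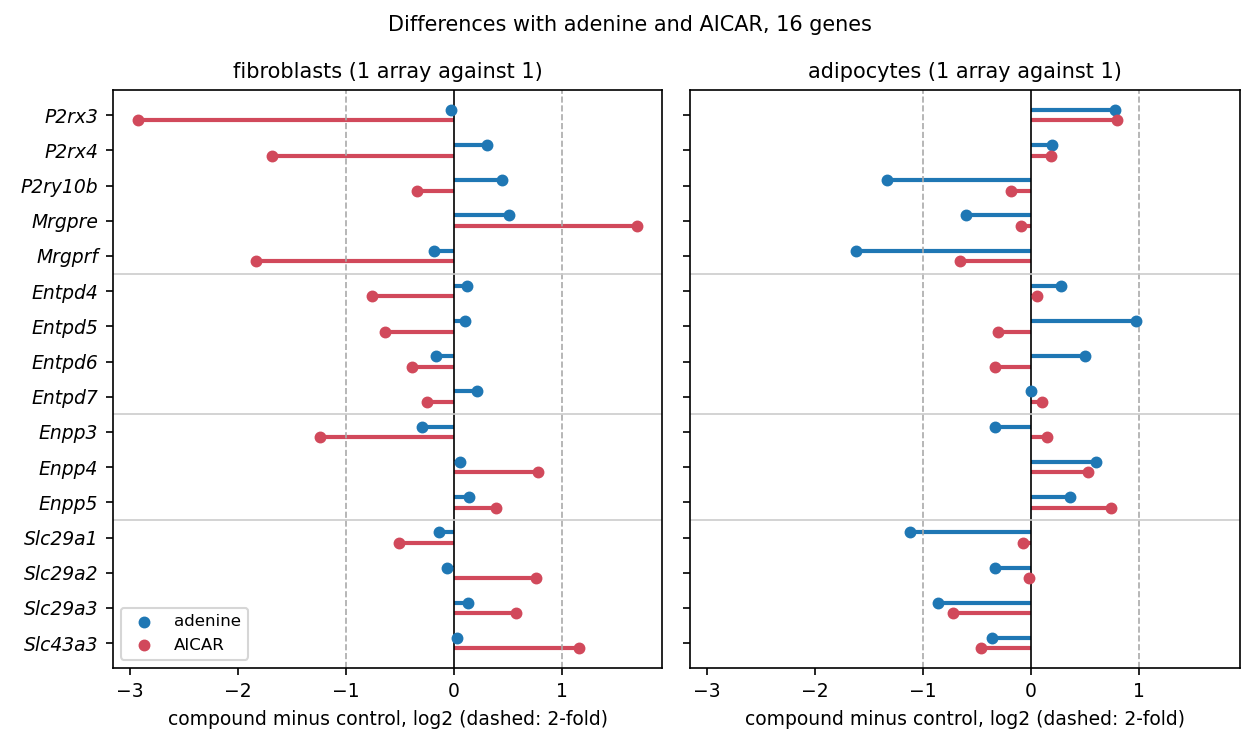
Log2 difference from the untreated control of the same state for the 16 genes, with adenine and with AICAR, in fibroblasts (left) and adipocytes (right; 1 array against 1; dashed lines, 2-fold). The bars past 2-fold are 6 with AICAR and none with adenine in fibroblasts, and 3 with adenine and none with AICAR in adipocytes.

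The 2 compounds were given at the same dose and for the same time within each state, and each state has 1 control array that both comparisons share, so the arrays of the compounds were also set against each other directly. In fibroblasts 5 of 16 genes differed at least 2-fold between AICAR and adenine, beside 5.49% of all genes (547 of 9969). AICAR minus adenine was -2.90 for P2rx3, -1.99 for P2rx4 and -1.65 for Mrgprf, and 1.19 for Mrgpre and 1.13 for Slc43a3. The P2rx3 value is that of its brighter probe set, and the mean of both gave -1.40. In adipocytes 3 of 16 did so, beside 3.42% (341 of 9969), with 1.14 for P2ry10b, 1.05 for Slc29a1 and -1.28 for Entpd5. P2rx3 and P2rx4 differed by 0.02 and -0.01 there. P2ry10b was kept by the filter through its fibroblast arrays, so its place in the adipocyte count carries no weight. Each of these pairs is 1 array against 1, so there is no test or interval, and a small difference does not show that the compounds act alike.

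Other genes of the pathway were taken from a list of release channels, further surface enzymes, intracellular salvage enzymes and signalling partners, 26 of 42 of which were at or above the median. Untreated adipocytes had 5 of the 26 at least 2-fold higher and 1 lower than fibroblasts, beside 7.15% of all genes past 2-fold. The higher ones were the cAMP phosphodiesterases Pde3b (2.44), Pde4b (1.85) and Pde4d (1.26), phospholipase Plcb1 (2.18) and the connexin Gja1 (1.10), and the volume-regulated channel subunit Lrrc8c was lower (-1.91). Untreated fibroblasts had Pde3b at 5.79 and Pde4b at 5.05, below the median of gene means. The filter kept both genes through their adipocyte arrays, so their place in this count carries no weight. AICAR in fibroblasts had 2 higher, Pde4b (1.35, from the dim control level of 5.05) and Pde4d (1.04), and 1 lower, Gja1 (-1.89), beside 5.39% of all genes. Adenine had 2 higher in adipocytes, beside 3.64% of all genes: the alkaline phosphatase Alpl (1.63), which removes phosphate from extracellular AMP, and Pde3b (1.14). Adenine in fibroblasts and AICAR in adipocytes had 0, beside 0.130% and 0.993%. Adk, the kinase that acts on adenosine and AICAR, was at -0.89 with AICAR in fibroblasts, and Aprt, the enzyme that turns adenine into AMP, at -0.26 with adenine in fibroblasts and -0.14 with adenine in adipocytes.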

How the data were processed

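RNA of each condition was measured on 1 Affymetrix array with a biotin label, per the labels' protocols. The authors deposited log2 expression values for 35556 probe sets. Transcriptome Analysis Console 1.0.0.234 and the build mm10 are named in the submitters' processing notes. How background, normalization and probe summary were handled is not given in the sources used here, so values were taken as deposited (array medians 5.41 to 5.49). Of the probe sets, 21789 had 1 symbol, 1621 several and 12146 none in the platform annotation. Only the first kind was compared, with the highest mean per symbol.

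Groups came from the labels, 1 array each; a cell type field that names fibroblasts for all 6 was not used. Log2 values were subtracted in 9 comparisons, and genes at or above 2-fold were counted among the 9969 at or above the median of gene means (5.87). In limma 3.58.1 (R 4.3.3) state was tested over all 6 arrays with medium as a term, with Benjamini-Hochberg adjustment at 0.05 over the 9969 genes and 2 residual degrees of freedom. On simulated data this model recovered 88 of 100 genes changed 2-fold and 99 of 100 changed 4-fold, with 20 false calls among 207. The simulated data were additive, with independent noise at the variances of the fit. They cannot show how the model behaves where state and medium do not add, so they do not bear on the calls made here. No test is possible between single arrays. The count of genes whose arrays did not overlap between states was added after seeing the data.

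The members and gene lists were chosen with earlier results of these data known. Every member at or above the median was named. Of the dimmer ones, those nearest the median and those that illustrate a family were named, and the others were given as ranges. Of the pathway list, genes at or above the median and 2-fold different were named, with Adk and Aprt added after their values were seen. Alternatives were quantile normalization, median centring, the mean of all probe sets of a symbol, a filter at the 75th percentile, no filter, a 1.5-fold threshold, an intensity trend in limma and leaving out each pair of arrays.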

Additional observations from a re-analysis of the deposited data

Results flagged for a closer look

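For 6 of the 16 brighter genes a compound went with a difference of at least 2-fold in one cell state and a difference of the opposite sign in the other. Of all 9969 genes at or above the median 5.35% did so. The difference between states was not tested, since each value rests on 2 single arrays, and the adipocytes were measured 3 days after the compound was withdrawn. With AICAR, P2rx3 stood at -2.93 in fibroblasts and 0.79 in adipocytes, so that the adipocyte difference was above the fibroblast one by 3.72. With the mean of both P2rx3 probe sets the values were -1.66 and 0.19, which are 1.85 apart. P2rx4 stood at -1.69 and 0.19 (1.88 apart) and Enpp3 at -1.24 and 0.15 (1.39 apart). Mrgpre stood at 1.70 in fibroblasts and -0.09 in adipocytes, a difference between states of -1.79, and Slc43a3 at 1.16 and -0.46, a difference of -1.63. Over all genes at or above the median, the robust SD of the AICAR difference in adipocytes was 0.196. The adipocyte differences of P2rx4, Enpp3 and Mrgpre were smaller than that, so their sign there cannot be read as a reversal. For P2rx3 only the mean of both probe sets (0.19) was smaller. Its brighter probe set stood at 0.79, and the other went from 4.83 in control to 4.42 in AICAR adipocytes. The probe sets of P2rx3 thus disagree on the sign, and it cannot be read as a reversal either. With adenine, P2ry10b stood at 0.45 in fibroblasts and -1.33 in adipocytes, a difference of -1.78. The filter kept P2ry10b through its fibroblast arrays, so its place among these genes carries no weight.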

How the results depend on the processing

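Counts of members at least 2-fold different stayed within 1.5 times of those reported under quantile normalization, median centring, the mean of all probe sets of a symbol and no filter, in all 9 comparisons. With the 75th percentile filter, which leaves 8 members, the counts were 3, 5 and 1 for adipocytes against fibroblasts in control medium, with adenine and with AICAR. They were 2 for AICAR in fibroblasts, 1 for adenine in adipocytes, and 2 and 1 for AICAR against adenine in fibroblasts and adipocytes. At 1.5-fold they were 10 for the states in control medium, 10 with AICAR, 10 for AICAR and 0 for adenine in fibroblasts. They were 8 for adenine and 4 for AICAR in adipocytes, and 11 and 5 for AICAR against adenine in fibroblasts and adipocytes. The shares of all genes past the fold are not given for the 75th percentile filter or for 1.5-fold. The counts at those settings therefore cannot be weighed against a background. The count of members called for state ranged from 0 without the control pair to 7 without the AICAR pair. Of all 9969 genes, 0 and 921 were called in those runs. The other settings gave 2 or 3 members. For single members no called difference changed sign. The mean of both probe sets moved 7 of the 9 differences of P2rx3, to -0.77 for the untreated states, -1.66 for AICAR in fibroblasts and 1.08 between states with AICAR, among others, the second probe set lying between 4.30 and 4.83 throughout. All values are limited by 1 array per condition, by the lack of detection calls for genes near the median and by probe sets that may read close copies.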

Other observations

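Several of these genes lie next to each other in the RefSeq gene table (GRCm38.p6). Of the 2 neighbouring pairs with both genes at or above the median, one had differences of opposite sign and the other of the same sign. On chromosome 2, Slc43a3 and P2rx3 are separated by 2 coding genes and 38.0 kb. With AICAR in fibroblasts Slc43a3 was at 1.16 and P2rx3 at -2.93, while Prg2 and Prg3 between them were at 0.23 and 0.53 and below the median of gene means on every array. In untreated adipocytes against fibroblasts the pair stood at 1.49 and -1.57. The P2rx3 values are those of its brighter probe set. Its other probe set gave -0.39 with AICAR in fibroblasts and 0.04 between the untreated states, so the opposite signs rest on 1 of 2 probe sets. Enpp5 and Enpp4, adjacent on chromosome 17 and 9.74 kb apart, stood at -2.42 and -0.89 between the untreated states and at 0.39 and 0.78 with AICAR in fibroblasts. There were 21 pairs within 3 coding genes of each other. In 15 both genes were below the median, and in 4 1 gene was above it: P2rx4 beside P2rx7, Mrgpre beside Mrgprg, Mrgprf beside Mrgprd and P2ry10b beside P2ry10.

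Some probe sets carry the symbols of several genes and cannot be assigned to one. The probe set shared by Mrgpra9 and Mrgprx3-ps, for which the RefSeq table lists the synonyms mAde2R and AdeR1 of mouse adenine receptors, lay between 2.38 and 3.54 on the 6 arrays. The other 2 probe sets shared by 6 Mrgpra genes lay between 4.01 and 4.22, and all 3 were below the median of gene means on every array. The probe set shared by Tmigd3 and Adora3, an adenosine receptor gene, lay between 4.65 and 5.34.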
